A study of Rattus norvegicus with 6 samples.

Results

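The miR-17, miR-18 and miR-19 seed families are 8 of the 761 rat miRNAs with a probe on the array, and they were taken by their exact probe names: rno-miR-17-5p, rno-miR-20a-5p, rno-miR-20b-5p, rno-miR-93-5p and rno-miR-106b-5p of the miR-17 seed, rno-miR-18a-5p of the miR-18 seed, and rno-miR-19a-3p and rno-miR-19b-3p of the miR-19 seed. The prefix rno, for rat, is left out of most names that follow. They were measured in cultured rat oligodendrocyte precursors, dividing glial cells that mature into the cells that make myelin in the brain and spinal cord. The series set 3 samples titled DIV3, which had been allowed to differentiate in Raff medium after a change of growth factors, against 3 samples titled DIV0, grown in Raff medium in the normal condition. DIV was read as days in vitro, here 3 and 0, so that time in culture goes with the growth condition and the effects of the 2 cannot be told apart. Strain, age and the number of animals behind a culture are not given in the sources used here, and no label states that the 3 samples of a group are separate cultures. The p-values therefore describe the scatter among these arrays, which could be technical only.

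A miRNA finds its target messenger RNAs mainly through its seed, bases 2 to 8 from the 5′ end, and miRNAs with the same seed are held to share most targets. The 3 seeds studied here are made together from polycistronic clusters, in which a single primary transcript is cut into several hairpins. The miR-17-92 cluster is known as a target of MYC and as a promoter of cell division and survival, with the cell cycle inhibitor Cdkn1a and the transcription factor E2f1 as targets of the miR-17 seed. In mice, loss of the cluster in the oligodendrocyte lineage is known to lower the number of oligodendrocytes.

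The mature sequences of the 8 miRNAs are shown by seed, which is in capitals, to make visible how few bases separate some of them. All 8 were matched by name to RefSeq (rat assembly GRCr8), in which no other mature miRNA of the table carried any of the 3 seeds.
miR-17-5p: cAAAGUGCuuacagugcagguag
miR-20a-5p: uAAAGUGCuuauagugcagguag
miR-20b-5p: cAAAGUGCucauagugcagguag
miR-93-5p: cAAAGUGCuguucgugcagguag
miR-106b-5p: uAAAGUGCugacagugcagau
miR-18a-5p: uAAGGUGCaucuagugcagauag
miR-19a-3p: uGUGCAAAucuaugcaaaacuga
miR-19b-3p: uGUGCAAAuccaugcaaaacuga

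Counted from the 5′ end, miR-17-5p and miR-20a-5p differ at 2 bases, C1U and C12U. Between miR-17-5p and miR-20b-5p there are also 2 differences, U10C and C12U. The pair miR-19a-3p and miR-19b-3p differs at 1 base, U11C. Against miR-17-5p, miR-93-5p has 4 differences (U10G, A11U, C12U and A13C), and miR-106b-5p has 3 over its 21 bases (C1U, U10G and G20A). The single miR-18 seed differs from the miR-17 seed at A4G. The sequences of the array probes were not used here, so how far a probe also binds a near-identical miRNA was not tested, and the values of miR-17-5p, miR-20a-5p and miR-20b-5p, and those of miR-19a-3p and miR-19b-3p, are uncertain as separate measurements.

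The 8 miRNAs come from 3 clusters. The miR-17-92 cluster, on the plus strand at chr15:98587848-98588632 of GRCr8, holds Mir17, Mir18a, Mir19a, Mir20a, Mir19b1 and Mir92a1. Its paralogue, the miR-106a-363 cluster on the minus strand at chrX:137342777-137343647, holds Mir106a, Mir20b, Mir19b2, Mir92a2 and Mir363. In the rat table the 5p arm of Mir106a is identical to miR-17-5p and carries that name, so that miR-17-5p, like miR-19b-3p, can come from both clusters and its probe cannot tell them apart. The miR-106b-25 cluster, on the minus strand at chr12:22156641-22157123, holds Mir106b, Mir93 and Mir25 and lies within the gene Mcm7, which encodes a subunit of the replicative DNA helicase.

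All 8 miRNAs lay clearly above the blank spots on every array, from 38.0 to 1538 SD of the blank spots above the blank mean. They passed the filter on dim probes through both groups. The array of DIV0 replicate 3 stood apart: its median miRNA spot lay 5.87 intensity units above the blanks, against 25.5 to 44.7 on the other 5 arrays. Its spike-in spots averaged 6832 units, against 27861 to 36833. The labelled cell type was checked against marker miRNAs. The 4 markers of differentiated oligodendrocytes (miR-138-5p, miR-338-3p and both arms of miR-219a) all rose in DIV3, with a deposited summed level of 2513 to 3877 in DIV3 and 160 to 698 in DIV0. Of the markers of other cells, 0 passed the limma test between conditions, while 3 had unadjusted p-values below 0.05. The 5 neuron markers summed to 282 to 412 in DIV3 and 358 to 391 in DIV0, with 4 detected on all 6 arrays. The 5 of microglia and blood cells, all detected on all 6 arrays, summed to 176 to 339 in DIV3 and 161 to 453 in DIV0. For the 4 of mural cells and fibroblasts, likewise detected on all 6, the sums were 150 to 321 in DIV3 and 172 to 309 in DIV0. The 2 endothelial markers, miR-126a-3p and miR-126a-5p, summed to 7 to 28 in DIV3 and 0 to 16 in DIV0, with empty cells counted as 0, and neither was detected on all 6 arrays. Detected here means above the blank mean by 2 SD. On these arrays 32.6% to 45.2% of the spots named No Probe also passed that threshold. A detection alone is thus weak evidence that a dim miRNA is present. The part of other cells in the results on the 8 miRNAs was not tested. In bulk samples like these, fewer cells of a type and less RNA per cell cannot be told apart.

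The comparison sets differentiated against growing precursors. Of the 8, 0 passed an adjusted p of 0.05 by limma, where 2.01% of the 695 miRNAs tested did, 1.15% higher and 0.863% lower. At an unadjusted p under 0.05, 6 of the 8 were higher and 0 lower, against 7.48% higher and 7.19% lower of all tested. That count of 6 depended on the processing, as did the count over all 695 tested, 102 in either direction as reported. By limma it stayed at 6 with cyclic loess (87 of 695 over all). It was 1 in the deposited values (46 of 633 over all), 1 without normalization (27 of 695) and 3 with median scaling (51 of 695). With the local background it was 2 (49 of 695), and without both arrays numbered 3 also 2 (61 of 695). The median log2 fold change of the 8 was 0.41, with all 8 above 0, against -0.006 for all tested miRNAs, of which 46.8% lay above 0. After quantile normalization the DIV3 arrays all lay above the DIV0 arrays for 5 of the 8 and for 10.1% of all tested. They all lay below for 0 of the 8 and for 8.78% of all tested. In the deposited values they all lay above for miR-20a-5p and miR-20b-5p alone among the 8. The share of all tested miRNAs was not counted in the deposited values, so this count has no background to be set against. The 5 miRNAs of the miR-17 and miR-19 seeds from the miR-17-92 and miR-106a-363 clusters stood 1.31- to 1.36-fold above DIV0, whereas miR-93-5p and miR-106b-5p of the miR-106b-25 cluster stood close to DIV0. Because 50 units were added to each corrected intensity before the log2 step, fold changes of dim probes are understated.

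Of the miR-17 seed, rno-miR-17-5p, the founding member of the cluster, had deposited intensities of 3079, 2415 and 2368 on the DIV3 arrays of replicates 1, 2 and 3, against 2374, 1469 and 1648 on the DIV0 arrays. The DIV3 values were thus above the DIV0 value of the same number in every pair, while the lowest DIV3 value fell just short of the highest DIV0 value. After quantile normalization the groups did not overlap, and the log2 fold change was 0.42 ± 0.08 (SE, n = 3 per group, limma adjusted p = 0.062), a 1.34-fold difference. This was the lowest adjusted p among the 8 and rank 16 of the 695 tested. Its ranks on the DIV3 arrays were 10, 9 and 9, so quantile normalization gave equal values on those of replicates 2 and 3. The normalized SD of 0.029 in DIV3 is therefore an uncertain measure of its spread. In the deposited values the log2 fold change was 0.54 ± 0.26 (limma adjusted p = 0.58).

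The deposited intensities of rno-miR-20a-5p, from the same chromosome 15 cluster, were 2093, 1922 and 1872 in DIV3, against 1747, 1142 and 1354 in DIV0. Every DIV3 value lay above every DIV0 value. This gave a log2 fold change of 0.45 ± 0.13 (limma adjusted p = 0.18), with differences of 0.14, 0.83 and 0.38 in the pairs numbered 1, 2 and 3.

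From the X-chromosome cluster, rno-miR-20b-5p had deposited intensities of 1689, 1399 and 1419 in DIV3, against 1309, 837 and 1017 in DIV0. Again the groups did not overlap. Its log2 fold change was 0.39 ± 0.09 (limma adjusted p = 0.086). Its probe held the same rank on all 3 DIV3 arrays, so that quantile normalization gave it 1 normalized value there and an SD of 0, which is no measure of its true spread. The deposited values, which were not ranked, averaged 1502 ± 162 in DIV3 and 1054 ± 238 in DIV0 (SD, n = 3 each).

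Both miRNAs of the miR-106b-25 cluster carry the same miR-17 seed. For rno-miR-93-5p, the deposited intensities were 1018, 836 and 977 in DIV3, against 1044, 681 and 841 in DIV0, with overlapping groups. On the log2 scale the difference was 0.02 ± 0.08, with a 95% interval of -0.17 to 0.21 (limma adjusted p = 0.97). The upper end of that interval lies below the estimates of miR-17-5p, miR-20a-5p and miR-20b-5p. Their own intervals begin at 0.23, 0.14 and 0.18, so those of miR-20a-5p and miR-20b-5p overlap with that of miR-93-5p.

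For rno-miR-106b-5p the intensities were 572, 476 and 571 in DIV3, against 688, 351 and 433 in DIV0. The DIV0 array of replicate 1 was the highest of all 6, and the pairs gave -0.36, 0.43 and 0.21 on the log2 scale. The log2 fold change was 0.09 ± 0.18, with an interval of -0.33 to 0.52 (limma adjusted p = 0.87), wide enough to hold the values of the other members of its seed.

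**Figure D1:**
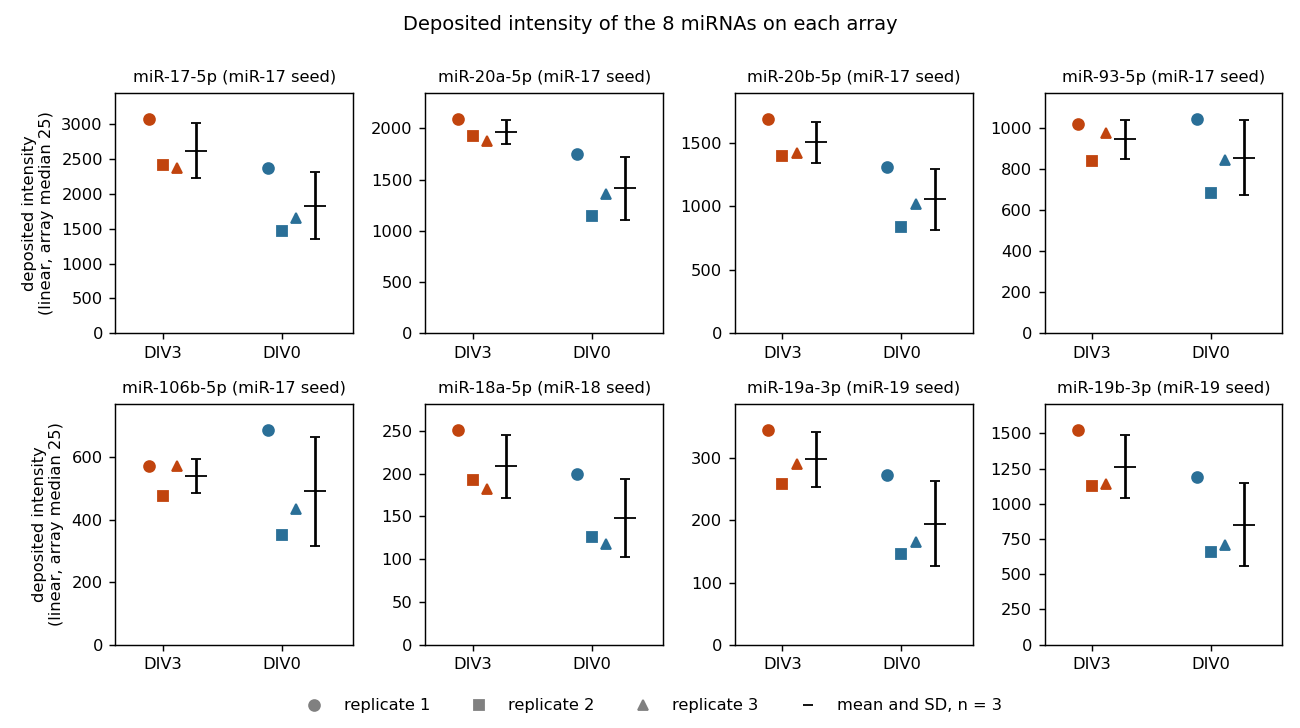
Deposited intensity (linear units, each array scaled to a median of 25) of the 8 miRNAs on the 3 DIV3 and 3 DIV0 arrays, with a marker shape for each replicate number and the mean and SD (n = 3) beside the points; each axis starts at 0. The 3 DIV3 values of miR-20a-5p and miR-20b-5p lie above all DIV0 values, those of miR-17-5p, miR-106b-5p, miR-18a-5p, miR-19a-3p and miR-19b-3p overlap with the DIV0 array of replicate 1 alone, and those of miR-93-5p overlap with the DIV0 arrays of replicates 1 and 3.

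The single member of the miR-18 seed, rno-miR-18a-5p, lies between Mir17 and Mir19a in the cluster. It had deposited intensities of 251, 192 and 182 in DIV3, against 200, 126 and 118 in DIV0. The DIV0 value of replicate 1 lay above 2 of the DIV3 values. DIV3 minus DIV0 came to a log2 fold change of 0.23 ± 0.09, with an interval of 0.004 to 0.46 (limma adjusted p = 0.34), and the pairs gave 0.13, 0.30 and 0.27.

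Of the miR-19 seed, rno-miR-19a-3p had deposited intensities of 346, 259 and 291 in DIV3, against 274, 146 and 165 in DIV0. The groups overlapped by the DIV0 array of replicate 1 alone. The log2 fold change was 0.43 ± 0.13 (limma adjusted p = 0.22), with 0.30, 0.49 and 0.49 in the 3 pairs. The fit with the replicate number as a block gave an adjusted p of 0.032 (limma), and miR-19a-3p rose in that fit. It was the only one of the 8 to pass there, where 3.74% of all tested miRNAs passed and 1.73% were higher. The labels do not state the pairing, which was read from the data.

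For rno-miR-19b-3p the deposited intensities were 1524, 1127 and 1139 in DIV3, against 1193, 655 and 706 in DIV0. As for miR-19a-3p, only the DIV0 array of replicate 1 reached into the DIV3 range. Its log2 fold change came to 0.45 ± 0.11 (limma adjusted p = 0.14), with 0.23, 0.54 and 0.57 in the pairs. The DIV3 ranks of miR-19b-3p were 24, 26 and 24, so quantile normalization gave equal values on the arrays of replicates 1 and 3. Its normalized SD of 0.049 in DIV3 is therefore an uncertain measure of its spread. With the replicate block the adjusted p-values of miR-19b-3p, miR-17-5p and miR-20b-5p were 0.054, 0.052 and 0.061 (limma).

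By seed, the median log2 fold change was 0.39 for the 5 miRNAs of the miR-17 seed, 0.23 for the 1 of the miR-18 seed and 0.44 for the 2 of the miR-19 seed. The place of the miR-18 seed turned with the scaling: miR-18a-5p stood at 0.52 in the deposited values and 0.30 with cyclic loess, where the median of the miR-17 seed was 0.49 and 0.25. Within the miR-17 seed the estimates ranged from 0.02 to 0.45. By cluster, the 6 miRNAs with a gene in the miR-17-92 or miR-106a-363 cluster ranged from 0.23 to 0.45, with a median of 0.42. All 6 were higher in DIV3 in 3 of 3 pairs, but the share of all tested miRNAs that were so was not counted. The 2 of the miR-106b-25 cluster had 0.02 and 0.09. In the pairs numbered 1, 2 and 3 the median of the 6 was 0.23, 0.55 and 0.42, and that of the 2 was -0.22, 0.22 and 0.17. Both groups were thus lowest in the pair numbered 1. The near-identical miRNAs among the 6 are uncertain as separate measurements. These groupings were made with the values known and describe the arrays.

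The difference between clusters within 1 seed was tested as the log2 ratio of 2 probes on each array, compared between DIV3 and DIV0 by an exact permutation test. With 3 against 3 arrays its p cannot go below 0.1, so no ratio could pass a threshold of 0.05, and 13 ratios were compared in all. The ratio of miR-17-5p to miR-93-5p averaged 1.44 ± 0.12 in DIV3 and 1.04 ± 0.08 in DIV0 (SD, n = 3 each), a difference of 0.40 (exact permutation p = 0.1, two-sided, 0.12 when adjusted over the 13). That of miR-20a-5p to miR-93-5p differed by 0.43, and that of miR-20b-5p to miR-93-5p by 0.37, at the same p. Against miR-106b-5p, the difference was 0.35 for miR-20a-5p (exact permutation p = 0.1). It was 0.33 for miR-17-5p and 0.30 for miR-20b-5p, both with overlapping groups (exact permutation p = 0.2). All 6 of these ratios were higher in DIV3 in 3 of 3 pairs, but how often ratios of other probes were so was not counted. In the deposited values the 6 differences were 0.30 to 0.38.

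**Figure D2:**
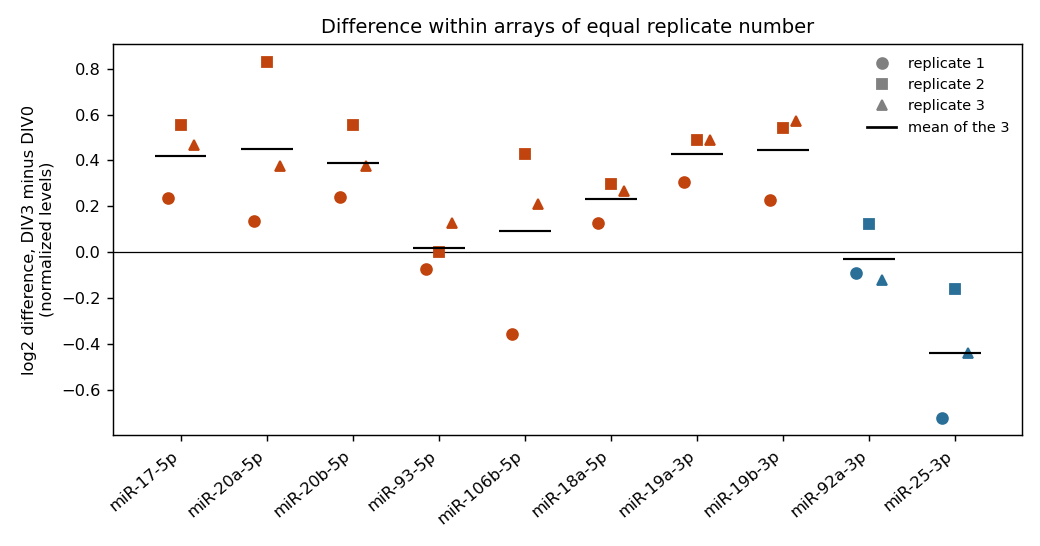
Log2 difference of normalized levels, DIV3 minus DIV0, within arrays of equal replicate number (marker shapes), with the mean of the 3 as a line, for the 8 miRNAs in red and for miR-92a-3p and miR-25-3p of the same clusters in blue. All 3 points lie above 0 for the 6 miRNAs of the miR-17-92 and miR-106a-363 clusters, while miR-93-5p and miR-106b-5p scatter about 0 and miR-25-3p lies below 0.

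The same transcripts also carry miRNAs of another seed, that of miR-25, whose mature sequences are given to show the seed in capitals.
miR-92a-3p: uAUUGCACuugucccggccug
miR-25-3p: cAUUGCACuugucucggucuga
miR-363-3p: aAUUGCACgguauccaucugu

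None of these 3 passed the test by limma, and all 3 lay below 0 after quantile normalization, 1 of them at an unadjusted p under 0.05. The last hairpin of the miR-106b-25 cluster gives miR-25-3p, which had deposited intensities of 308, 327 and 332 in DIV3, against 495, 356 and 432 in DIV0. Every DIV3 value lay below every DIV0 value, with a log2 fold change of -0.44 ± 0.12 (limma adjusted p = 0.16). For miR-92a-3p, made by both other clusters, the estimate was -0.03 ± 0.12. Its direction turned in the deposited values, which were 303, 202 and 223 in DIV3, against 276, 163 and 212 in DIV0, higher in DIV3 in 3 of 3 pairs with overlapping groups. In the deposited values the median log2 fold change of all tested miRNAs was itself 0.07. For miR-363-3p of the X-chromosome cluster the estimate was -0.05 ± 0.09, with deposited intensities of 20, 19 and 18 in DIV3, against 19, 27 and 14 in DIV0.

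Ratios to these miRNAs were compared in the same way. Within the miR-106b-25 cluster, the ratio of miR-93-5p to miR-25-3p averaged 1.42 ± 0.22 in DIV3 and 0.96 ± 0.06 in DIV0 (SD, n = 3 each), a difference of 0.46. That of miR-106b-5p to miR-25-3p differed by 0.53. The ratios of miR-17-5p, miR-18a-5p, miR-19a-3p, miR-20a-5p and miR-19b-3p to miR-92a-3p differed by 0.45, 0.26, 0.46, 0.48 and 0.48. Since miR-92a-3p, miR-17-5p and miR-19b-3p are also made on the X chromosome, none of these 5 ratios is within a single transcript. All 7 ratios were higher in DIV3 in 3 of 3 pairs and had groups that did not overlap (exact permutation p = 0.1 each, 0.12 when adjusted over the 13). How often ratios of other probes did the same was not counted. A ratio within an array shows an unequal change and not which of the 2 miRNAs changed.

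Each hairpin also gives a second arm, usually the less abundant one, and these arms can tell the loci apart where the main arms cannot. The 2 genes of miR-17-5p have different 3p arms, shown here for that reason.
miR-17-1-3p: acugcagugaaggcacuugugg
miR-17-2-3p: acugcacugcaagcacuucuuac

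The chromosome 15 arm, miR-17-1-3p, was detected on all 6 arrays, with deposited intensities of 99, 90 and 89 in DIV3, against 77, 55 and 47 in DIV0. The groups did not overlap. Its log2 fold change was 0.30 ± 0.06 (limma adjusted p = 0.080), with 0.16, 0.35 and 0.39 in the pairs. The X-chromosome arm, miR-17-2-3p, exceeded the detection threshold on 2 DIV3 arrays and 0 DIV0 arrays and was not tested. On the DIV3 arrays of replicates 1 and 2 it stood 4.46 and 2.32 SD of the blank spots above the blank mean. Spots named No Probe passed the same threshold at 32.6% to 45.2% per array, so these calls are weak evidence of presence. For miR-19b-3p the arms of both genes were near the blanks: miR-19b-1-5p was detected on 3 DIV3 arrays and 1 DIV0 array, and miR-19b-2-5p on 1 of each.

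Of the 14 opposite arms of the 3 clusters, 11 were tested by limma and 0 passed. With unadjusted p-values below 0.05, 2 were higher, miR-17-1-3p and miR-18a-3p, and 0 lower. The deposited intensities of miR-18a-3p were 31, 27 and 24 in DIV3, against 21, 22 and 12 in DIV0, with a log2 fold change of 0.20 ± 0.07 (limma adjusted p = 0.29). The 11 ranged from -0.22 for miR-25-5p to 0.30 for miR-17-1-3p, with a median of 0.03 and 7 above 0. Other arms of bright partners had small estimates, with 0.08 ± 0.09 for miR-20a-3p, 0.15 ± 0.09 for miR-20b-3p and 0.03 ± 0.08 for miR-106b-3p. The arm miR-92a-2-5p stood at 0.20 ± 0.19 and miR-363-5p at -0.17 ± 0.08. Those of miR-19a-5p, miR-19b-1-5p and miR-92a-1-5p lay between -0.03 and 0.01, and each was detected on 3 or 4 of the 6 arrays. The third arm left untested was miR-93-3p, detected on 1 array of each condition.

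**Figure D3:**
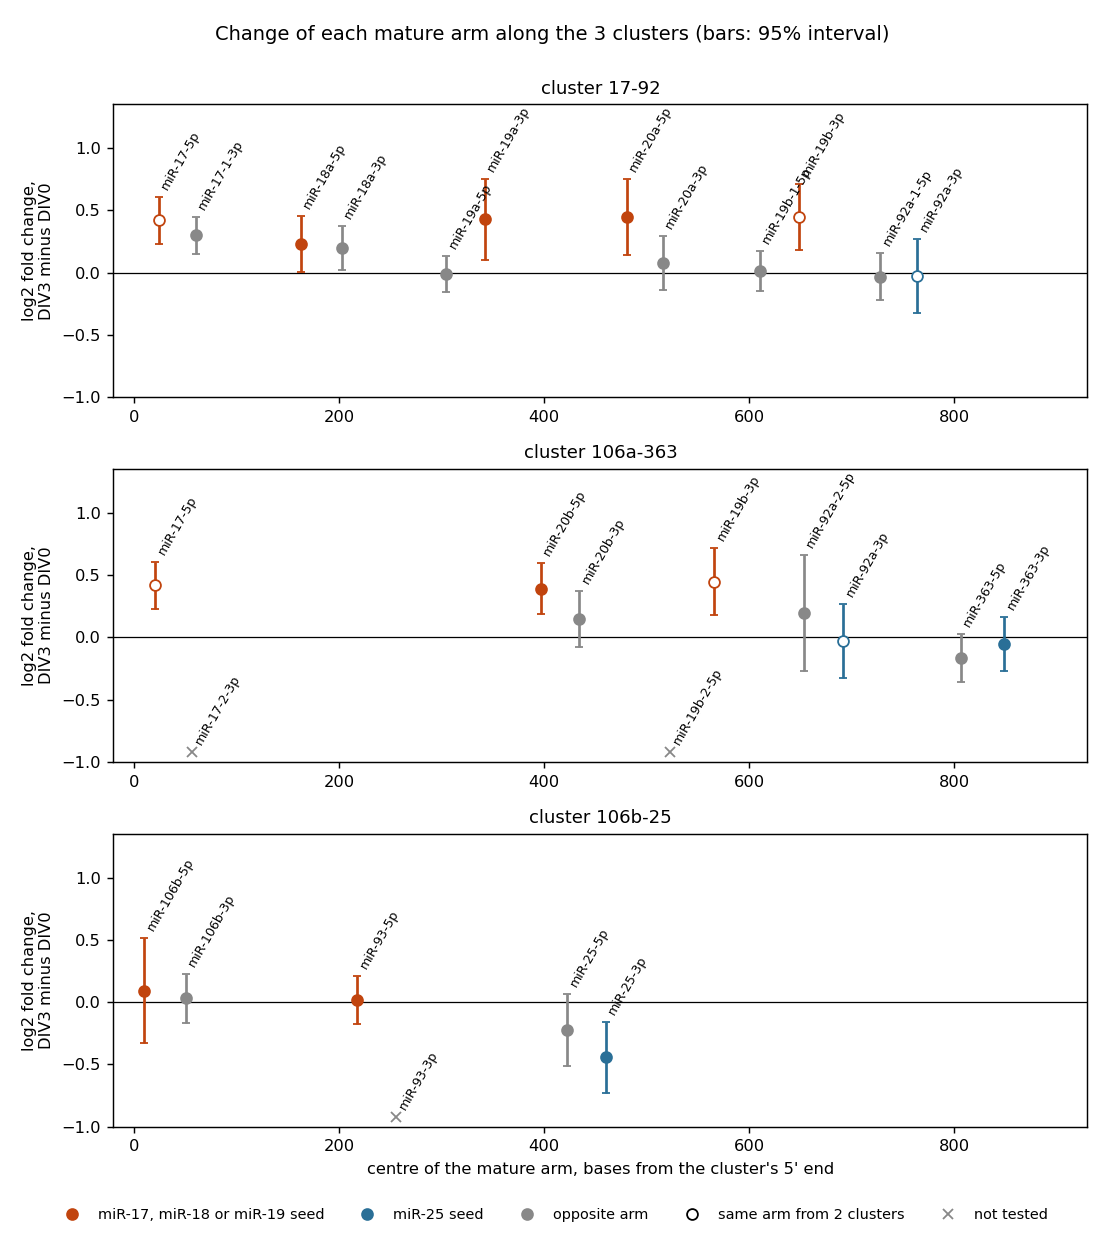
Log2 fold change (DIV3 minus DIV0, with its 95% interval, n = 3 per group) of each mature arm against its distance in bases from the 5′ end of its cluster, in red for the miR-17, miR-18 and miR-19 seeds, blue for the miR-25 seed and grey for opposite arms. Open circles mark arms made by 2 clusters, and crosses at the foot mark the 3 arms that were not tested. The red points of the first 2 panels lie between 0.23 and 0.45, those of the miR-106b-25 cluster at 0.02 and 0.09, and miR-25-3p at -0.44.

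Among the tested miRNAs outside the 8, those with normalized levels most like the mean of the 8 over the 6 arrays, each centred on its own mean, were miR-186-5p, miR-148b-3p, miR-30e-5p, miR-22-5p and miR-542-5p. Their root mean square differences from that mean were 0.063 to 0.074 on the log2 scale. The same measure was 0.051 for miR-20b-5p and 0.067 for miR-17-5p. The other 6 of the 8 lay further from their own mean than these 5 miRNAs did, with 0.078 for miR-18a-5p, 0.081 for miR-19b-3p, 0.10 for miR-19a-3p, 0.12 for miR-20a-5p, 0.15 for miR-106b-5p and 0.17 for miR-93-5p. Since the 5 were picked as the closest of all tested miRNAs outside the 8, this order does not show how alike the 8 are. The log2 fold changes of the 5 were 0.19 to 0.34 (limma adjusted p = 0.080 to 0.43).

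The direction of the 6 miRNAs from the miR-17-92 and miR-106a-363 clusters was the same under quantile normalization, median scaling, cyclic loess and in the deposited values, while with normexp against the local background miR-17-5p stood at -1.92, miR-18a-5p at -0.01 and miR-19a-3p at -0.29. That background followed the spots themselves, with correlations of the log2 values of 0.939 to 0.982. Their size depended on the scaling. The median of the 8 lay 0.41 above the median of all tested miRNAs as reported, 0.29 with cyclic loess, 0.46 in the deposited values and 1.00 with median scaling. With median scaling miR-93-5p and miR-106b-5p also stood at 0.69 and 0.67 above that median. Without the dim DIV0 array of replicate 3, an alternative chosen after seeing the data, median scaling gave 0.55 for the median of the 8, and 0.23 and 0.20 for miR-93-5p and miR-106b-5p.

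Single arrays decided which of the 8 passed. Without the DIV0 array of replicate 1, 2 of the 8 rose, miR-19b-3p with a log2 fold change of 0.57 (limma adjusted p = 0.014) and miR-17-5p with 0.49 (adjusted p = 0.021). Over all miRNAs, 13 of 695 passed in that fit, 10 of them higher. The DIV0 array of replicate 1 also carried the most of the oligodendrocyte markers among the DIV0 arrays, with a summed level of 698. Its miR-219a-5p stood at 273, against 22 and 43 on the DIV0 arrays of replicates 2 and 3. The part of this in the result was not tested. Leaving out any other single array, 0 of the 8 passed by limma, and 4 or 5 had unadjusted p-values below 0.05. Of all 695, 0 to 7 passed in those fits and 72 to 94 had unadjusted p-values below 0.05. The arrays numbered 1 shared a slide, as did those numbered 2, so these pairs are also the differences within a slide. With the slide as a random block 2 passed as higher, miR-17-5p (limma adjusted p = 0.033) and miR-20b-5p (0.045). Of all 695, 29 passed there, 17 of them higher. A fixed slide block left 0 of the 8 past the threshold by limma and 4 with unadjusted p-values below 0.05, against 0 and 87 of all 695. Each array numbered 3 was alone on its slide, so the fixed slide block takes both out of the comparison. It equals the replicate block without the arrays numbered 3. DIV3 arrays always lay at the second position of a slide and DIV0 arrays at the first, and the effects of position and condition cannot be told apart.

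**Figure D4:**
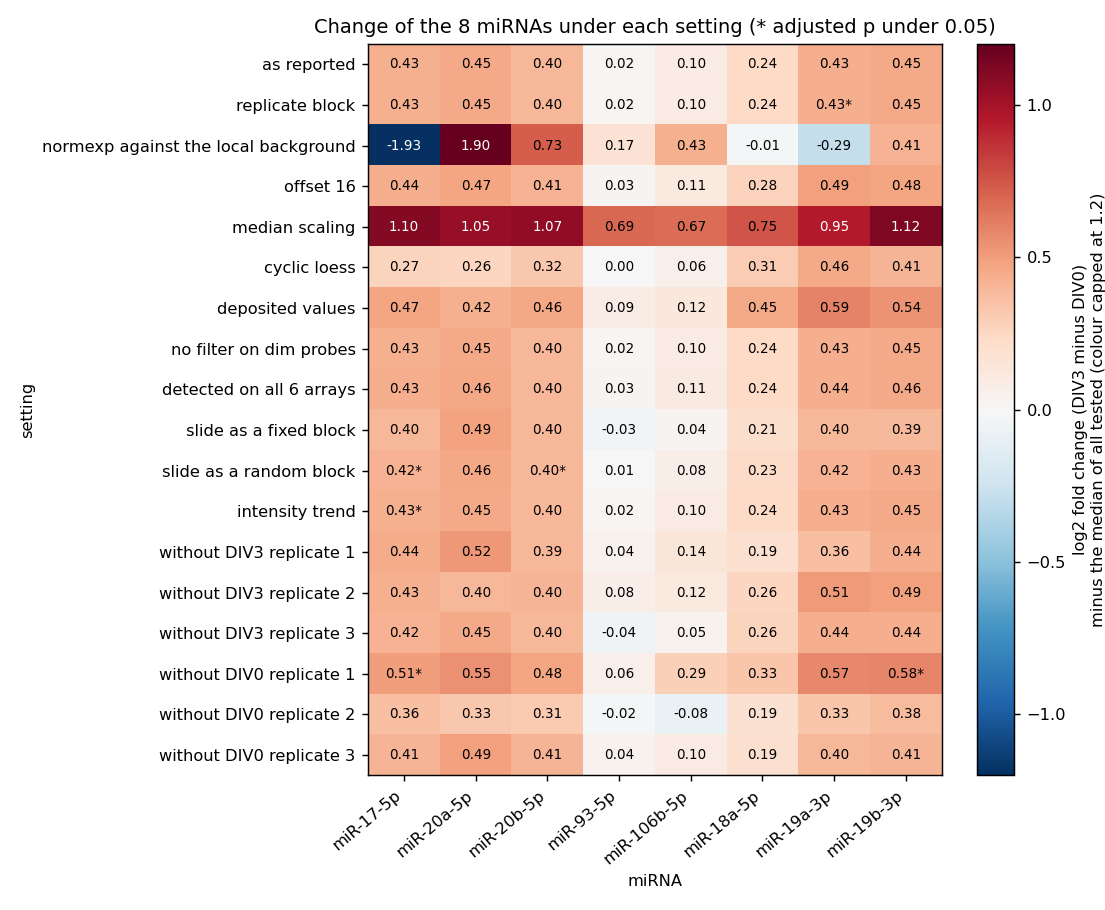
Log2 fold change (DIV3 minus DIV0) of each of the 8 miRNAs relative to the median of all tested miRNAs, under the settings named on the vertical axis; stars mark a limma adjusted p under 0.05. The columns of miR-93-5p and miR-106b-5p are near 0 in most settings, median scaling gives the largest values throughout apart from miR-20a-5p with the local background, and normexp against the local background turns miR-17-5p, miR-18a-5p and miR-19a-3p below 0.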

How the data were processed

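Each array carried the Cy5-labelled RNA of 1 sample, per the labels. Their labelling text names a kit that amplifies RNA to amino allyl aRNA, which is a kit for messenger RNA, so how the miRNAs were labelled is uncertain. The deposited scanner files hold median spot intensity for 3200 spots, joined from 3 gains and neither background-corrected nor normalized, per the file headers. A deposited value table holds linear intensity values with a median of 25 on each array, whose making the labels do not state.

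The background was removed by normexp with the blank spots as negative controls (limma 3.58.1 in R 4.3.3, with an offset of 50). Log2 values of the 761 miRNA probes were then quantile-normalized between arrays. The blank spots replaced the local background, which followed the spots. The 695 miRNAs above the blank mean by 2 SD (blanks trimmed by 5% at each end) on at least 3 arrays were tested by lmFit and eBayes, two-sided, with Benjamini-Hochberg adjustment over all of them and 0.05 as threshold. With 6 arrays, their number limits precision. Ratios of probes were tested by exact permutation (scipy 1.17.1).

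Samples were grouped by their titles. Arrays of equal replicate number deviated together from their group means (correlations of 0.37, 0.54 and 0.47 across miRNAs), so equal numbers were treated as pairs. This pairing comes from the data and not from the labels. The fit without a block is reported, and the fit with it where it changes a call. Alternatives covered the background, offset, normalization, filter, slide, variance trend and left-out arrays. Only the limma fit without a block was tested on simulated data, drawn as independent normal values around the normalized means. The background step, filter, normalization, pairing and permutation test were not part of that simulation.

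The 8 miRNAs, the lists and the ratios were chosen with earlier results of these data known. The text names the 8, the other arms of their clusters, marker miRNAs of cell types and the 5 miRNAs with the most similar levels.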

Additional observations from a re-analysis of the deposited data

How the results depend on the processing

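The count of the 8 miRNAs past the threshold was 0 as reported. It was 1 with the replicate block (miR-19a-3p), 1 with an intensity trend (miR-17-5p, limma adjusted p = 0.025), 2 with the slide as a random block, and 0 to 2 with 1 array or both arrays of a number left out. With the replicate block and both arrays numbered 2 left out, an alternative chosen after seeing the data, it was 3, and it was 0 without those numbered 1 or 3. The median log2 fold change of the 8, 0.41 as reported, was 1.01 with median scaling, 1.26 without normalization between arrays, where the median of all tested miRNAs was itself 0.26, and 0.28 to 0.48 with arrays left out. The reversals were miR-17-5p at -1.92, miR-18a-5p at -0.0093 and miR-19a-3p at -0.29 with the local background, and miR-93-5p at -0.0079 with cyclic loess and -0.037 with a fixed slide block. With arrays left out miR-93-5p ranged from -0.050 to 0.068 and miR-106b-5p from -0.083 to 0.32, and with the replicate block and both arrays of a number left out miR-93-5p reached -0.037 and miR-106b-5p -0.074. The cause of these changes was not tested.

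Of the other miRNAs of the 3 clusters, 0 passed as reported, 1 with the slide as a random block, and 1 (lower) with the replicate block without the arrays numbered 2. Over all miRNAs, 14 passed as reported, 26 with the replicate block, 1 with the local background, 6 with an offset of 16, 4 with median scaling (9 without the DIV0 array of replicate 3), 0 without normalization (27 at an unadjusted p below 0.05 by limma), 6 in the deposited values, 29 with a random and 0 with a fixed slide block (87 at an unadjusted p below 0.05 by limma), and 0 to 13 with arrays left out (61 to 115 at an unadjusted p below 0.05). With the replicate block and both arrays numbered 1, 2 or 3 left out, 1, 41 and 0 passed. The last of these is the same fit as the fixed slide block.

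The remaining alternatives, among them both changes of the filter on dim probes, left the counts within 1.5 times. The block changed no other call among the 8. Fits that leave out an array kept the normalization of all 6.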
